A study of Rattus norvegicus with 23 samples.

Results

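The transcripts described here encode the cytoskeleton and related proteins of the axon. They come from 7 genes: the neurofilament subunits Nefh and Nefl, their partner Ina (alpha-internexin), the microtubule-associated proteins Map1a and Map1b, the ubiquitin hydrolase Uchl1 and the spectrin-binding adducin Add1. Every probe whose platform annotation named 1 of these genes was taken, whatever its values, which gave 9 probes of the 5088 on the array and 7 of the 4153 genes with a symbol. Nefl and Map1b each had 2 probes. All 9 probes passed the filter on missing values at every time and in every comparison.

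The study followed rat dorsal root ganglia after a conditioning lesion, a cut of the peripheral axon branch after which the sensory neurons gain capacity to regrow their axons. Long-Evans rats had a sciatic nerve transected at postnatal day 20 to 24, and the L4 and L5 ganglia were taken 4, 8, 12, 18, 24, 48, 148 or 296 h later. Each of the 23 two-colour arrays set RNA of lesioned ganglia (Cy5) against RNA of intact ganglia (Cy3), with 3 arrays per time (2 at 296 h). A ratio above 1 therefore means more signal in the lesioned ganglia. By the labels no genotype or drug differed between the groups, and the source animals of the intact ganglia are not stated. No array exchanged the dyes, so a dye effect that a probe keeps on all arrays cannot be told apart from the lesion effect at any time or in the mean, and cancels in a difference between times. The second array at 296 h carried 294 h in its time label. Some labels name cultured cells and cAMP as the material and treatment, where others describe surgery and the removal of ganglia, which was followed here. Separate animals are not stated for the replicates of a time, so p-values measure the spread between these samples, which may be technical. Ganglia hold neurons, glia and other cells together, and fewer cells of a type cannot be told apart from less RNA per cell.

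Neurofilaments are the intermediate filaments of large axons. Light, medium and heavy subunits and alpha-internexin assemble together, and the filaments that they form set axon calibre. After a cut of the peripheral axon, sensory neurons are known to make less neurofilament while they rebuild the growing axon from tubulin and actin. Map1a and Map1b bind and stabilise microtubules. Map1b is the form of growing axons, and Map1a that of mature neurons. Uchl1, also called PGP9.5, is an abundant neuronal protein that hydrolyses ubiquitin adducts, and Add1 caps actin filaments and ties them to the spectrin lattice beneath the axon membrane.

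The table of RefSeq promoters (build GRCr8) held 5 of the 7 genes. The promoters of Map1a, Map1b and Uchl1 are shown because these genes gave the microtubule and ubiquitin hydrolase results. The bases run 5′ to 3′ on the strand of the gene over the 250 bases before an annotated start of transcription. For Map1b this window adjoins the outer end of the annotated gene. The windows of Map1a and Uchl1 lie inside the span of the annotated gene, before a start within it. Capitals mark the letters TATAAA, known from core promoters, and GGGCGG, a GC box where Sp factors bind, read on either strand.
Map1a, chr3:128722445-128722694, plus strand: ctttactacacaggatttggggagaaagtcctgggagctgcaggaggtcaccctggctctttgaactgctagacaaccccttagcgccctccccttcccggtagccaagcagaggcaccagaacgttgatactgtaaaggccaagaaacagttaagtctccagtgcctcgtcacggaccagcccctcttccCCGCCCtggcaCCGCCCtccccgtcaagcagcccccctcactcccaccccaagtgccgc
Map1b, chr2:32644472-32644721, minus strand: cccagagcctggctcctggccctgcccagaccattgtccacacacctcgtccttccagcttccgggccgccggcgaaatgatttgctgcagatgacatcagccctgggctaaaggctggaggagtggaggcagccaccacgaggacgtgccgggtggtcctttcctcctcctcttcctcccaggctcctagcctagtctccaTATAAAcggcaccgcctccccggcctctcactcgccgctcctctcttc
Uchl1, chr14:41849418-41849667, minus strand: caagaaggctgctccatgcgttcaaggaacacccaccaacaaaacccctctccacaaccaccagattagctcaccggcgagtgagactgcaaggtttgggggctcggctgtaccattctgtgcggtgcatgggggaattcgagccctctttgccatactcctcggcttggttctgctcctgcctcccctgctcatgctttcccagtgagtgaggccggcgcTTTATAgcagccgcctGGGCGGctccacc
The promoter of Map1b held TATAAA 48 bases before the start, and that of Uchl1 held its reverse complement 29 bases before the start. Map1a did not hold TATAAA but held 2 GC boxes on the reverse strand, 59 and 48 bases before the start, and Uchl1 held 1 GC box 13 bases before it. TATAAA stood in 12.9% and GGGCGG in 30.5% of the 33469 promoters of the same length. GC content was 60.4% for Map1a, 63.6% for Map1b and 59.6% for Uchl1, against a median of 51.2%. The letters TGANTCA (an AP-1 site, the motif of Jun, a factor that nerve injury induces), present in 6.34% of all promoters, and TGACGTCA (the cAMP response element), present in 1.59%, were in none of the 5 windows.

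Missing values divided the arrays into 17 with 77 to 143 probes missing, called full here, and 6 with 735 to 3025 missing, called sparse. Every array of 148 h was sparse, as were replicates 2 and 3 of 48 h and replicate 2 of 296 h. Their log2 ratios had an SD of 1.22 to 1.61 over probes, against 0.506 to 0.913 on the full arrays. The fit therefore gave each array a weight, estimated from the spread of its values about the means of its time. At 296 h the full and the sparse array got the same weight, 0.39, although their SDs over probes were 0.549 and 1.60. The injury genes moved as the labels say: the transcription factor Atf3 was 5.70-fold higher at 18 h, the neuropeptide Gal 20.3-fold higher at 48 h, Npy 41.1-fold higher at 148 h and the growth cone protein Gap43 2.65-fold higher at 148 h.

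Nefh, the heavy neurofilament subunit, was higher in lesioned ganglia at 12 and 24 h. Its ratios were 1.34, 1.51 and 1.61 at 12 h and 2.03, 2.51 and 2.22 at 24 h. Every array of these times lay above 1, and the arrays of 24 h were the 3 highest of the series. At 4 h its ratios were 1.74, 0.954 and 1.58, at 8 h 1.22, 1.44 and 1.37, and at 18 h 2.01, 0.968 and 0.985. At 18 h, then, 1 array resembled those of 24 h and the other two lay just below 1. At 48 h the ratios were 1.496, 1.74 and 0.969, at 148 h 1.17, 1.25 and 0.958, and at 296 h 1.14 and 1.38. Nefh was above 1 on 18 of 23 arrays, and none of the 5 arrays below 1 was lower than 0.954. Of the 1501 probes measured on all arrays, 32.6% lay on the same side of 1 on at least 19, a stricter bar than Nefh met. The share on at least 18, which would match Nefh and cannot be smaller, was not computed. The fitted log2 ratio was 0.61 ± 0.16 (SE; adjusted p = 0.0326) at 12 h and 1.19 ± 0.19 (adjusted p = 0.00143), a 2.28-fold rise, at 24 h. At the other times the fitted values lay between 0.16 and 0.55 and did not pass the threshold. The 12 h call was lost without replicate 2 at 12 h (0.63, adjusted p = 0.173) and without replicate 3 (0.56, adjusted p = 0.261). It was also lost on the full arrays alone (adjusted p = 0.0884) and with each set of probes that share a name number centred (0.51, adjusted p = 0.0738). In all, 5 of 6 fits that left out arrays lost it, as did equal array weights (0.57, limma adjusted p = 0.473).

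**Figure D1:**
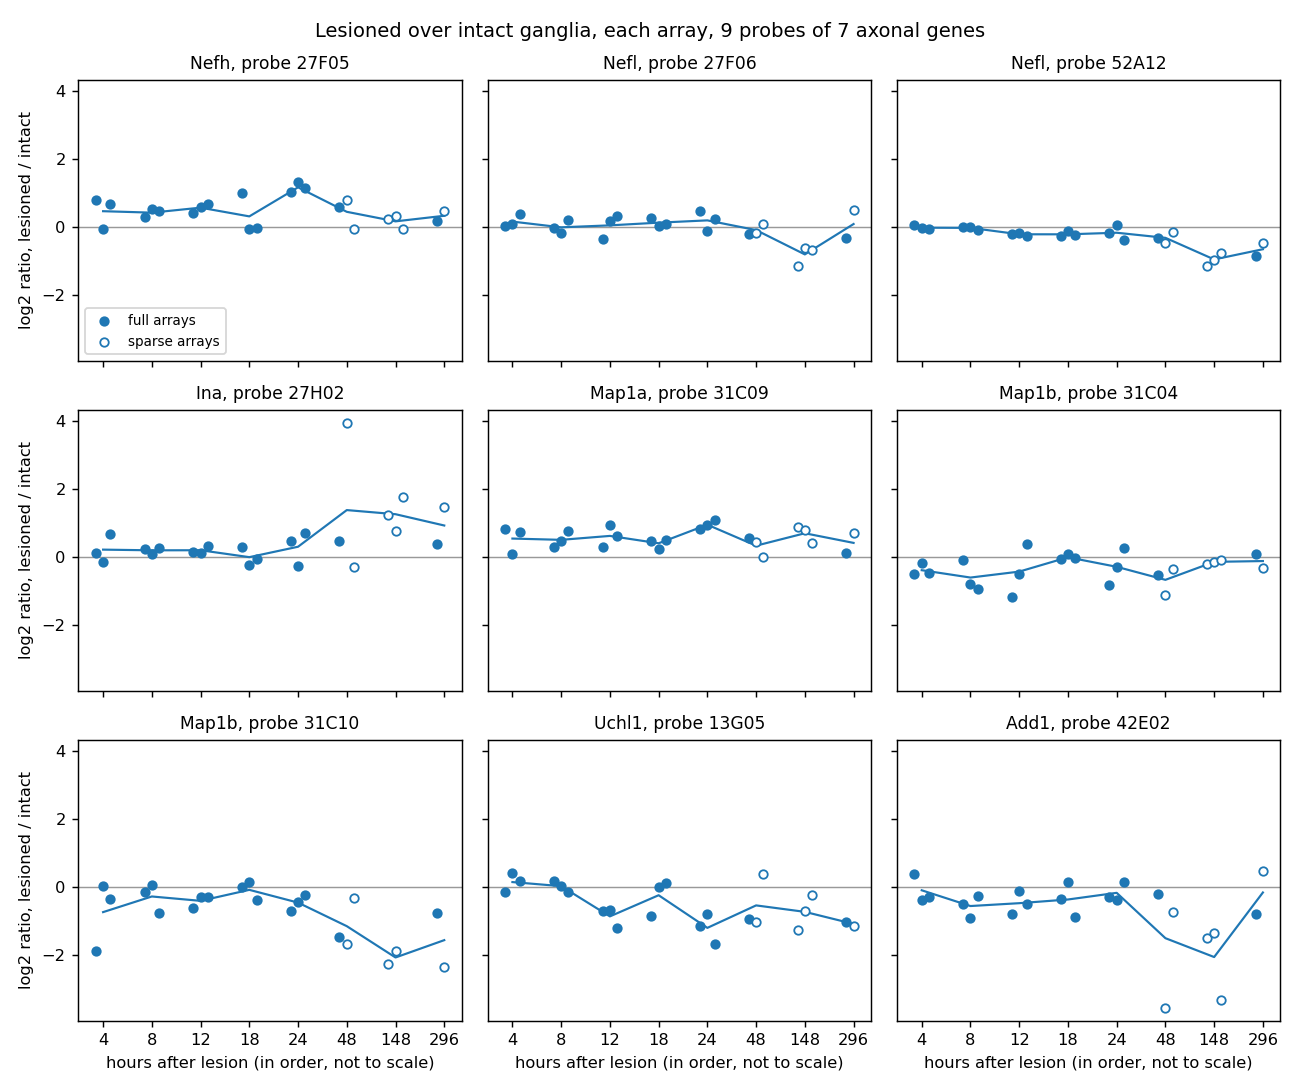
Log2 ratio of lesioned over intact ganglia on every array (y axis) for the 9 probes, by time after the lesion in hours (x axis, times in order and not to scale). Filled points are full arrays, open points sparse arrays, and the line joins the mean of the arrays of each time; Nefh peaks at 24 h, Map1a lies above 0 nearly throughout, and both Nefl probes are lowest at 148 h.

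Nefl, the light subunit, did not pass at 12 or 24 h by either probe. Its probe 27F06 had ratios of 1.37, 0.920 and 1.18 at 24 h, and its probe 52A12 had 0.883, 1.05 and 0.762. Both probes lay on either side of 1 at the time when Nefh exceeded 2 on all arrays. At 148 h both were low on every array. Probe 27F06 had ratios of 0.455, 0.656 and 0.625, and probe 52A12 had 0.450, 0.514 and 0.593. All 3 arrays at this time are sparse. The fitted log2 ratio at 148 h was -0.92 ± 0.22 (adjusted p = 0.0154) for probe 52A12 and -0.74 ± 0.29 (adjusted p = 0.133) for probe 27F06. At 296 h the probes parted, with 0.799 and 1.41 for 27F06 and 0.558 and 0.723 for 52A12. Probe 27F06 ranged from 0.781 to 1.29 over the 18 arrays up to 48 h except for the 1.37 at 24 h, and probe 52A12 from 0.715 to 1.05. Probe 52A12 was below 1 on all 8 arrays from 48 h on, and on 19 of 23 in all, where 32.6% of probes lay on the same side of 1 on at least 19. The call of probe 52A12 at 148 h was lost when any 1 of the 3 arrays of 148 h was left out, with values from -1.02 to -0.86 and an adjusted p of up to 0.101.

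The ratio of Nefl also depended on the set of probes it was read with. The probe names begin with a number that 96 probes share, and the labels do not say what it stands for. At 148 h the median log2 ratio of the 53 such sets ran from -2.33 to 0.69. It was -0.62 in the set of probe 52A12 and 0.42 in the set of probe 27F06, which also holds Nefh and Ina. Whether a set's shift belongs to its genes or to how its probes were made and printed cannot be told apart. With every set centred on its own median on each array, an alternative chosen after seeing the data, the value at 148 h was -1.07 ± 0.28 (adjusted p = 0.034) for probe 27F06 and -0.37 ± 0.25 (adjusted p = 0.467) for probe 52A12. Both probes were thus below 0 at 148 h either way, and which of them passed the threshold changed.

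**Figure D2:**
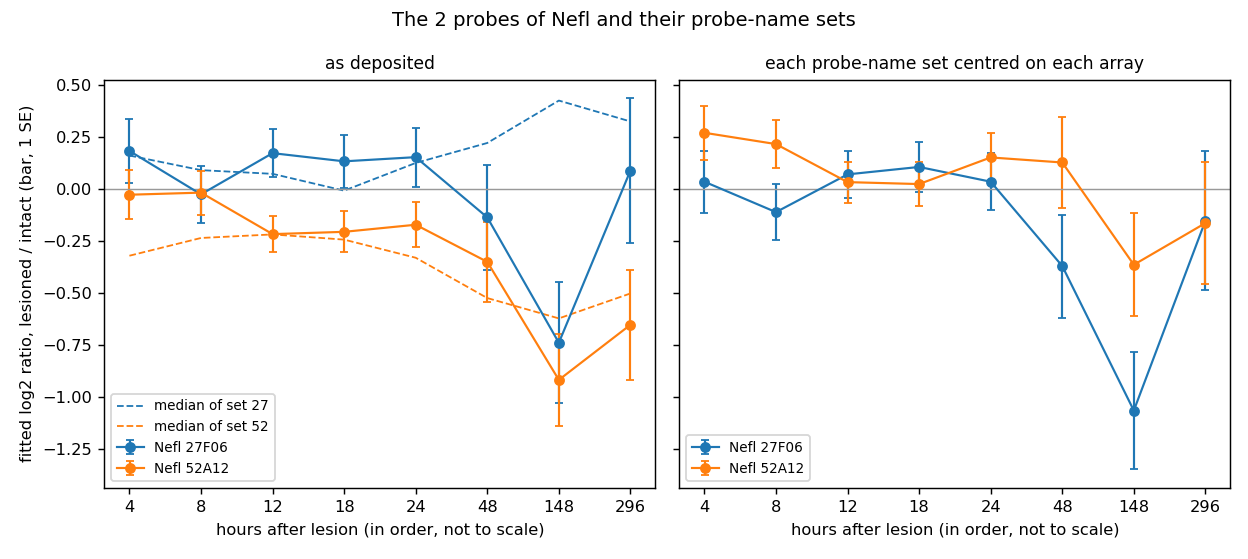
Fitted log2 ratio of lesioned over intact (y axis, bar 1 SE) for both Nefl probes by time in hours (x axis, in order and not to scale), as deposited on the left with the median of each probe's name set as a dashed line, and after centring of each set on the right. Both probes are lowest at 148 h in both panels, and their order at 148 h turns with the centring.

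The pair of Nefl probes also differed from each other. Probe 52A12 gave the lower ratio on 18 of the 23 arrays, by 0.27 on the log2 scale on average (SD 0.30; permutation test, two-sided, adjusted p = 0.0015). The difference was also there on the 17 full arrays (-0.24; permutation test, adjusted p = 0.013). These were 2 of 6 probe comparisons, which were added after the values had been seen. The name sets of the probes differed in the same direction, with a median effect over the 8 times of -0.40 for the set of 52A12 and 0.17 for that of 27F06. With the sets centred the mean over the times was 0.035 for 52A12 and -0.18 for 27F06, so that their order turned.

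Ina, the alpha-internexin subunit, had ratios between 0.826 and 1.64 up to 24 h and exceeded that range afterwards on sparse arrays only. Its ratios were 1.38, 0.826 and 1.64 at 24 h, 1.40, 15.5 and 0.812 at 48 h, 2.37, 1.71 and 3.39 at 148 h, and 1.31 and 2.76 at 296 h. All 5 arrays from 148 h on were above 1, while the arrays of 48 h disagreed widely. Of the late arrays only replicate 1 of 48 h (1.40) and replicate 1 of 296 h (1.31) were full, and both lay within the range of the first day. The value of 15.5 came from a sparse array and was the highest of any of the 9 probes. In the fit the log2 ratio was 1.63 ± 0.54 (adjusted p = 0.0999) at 48 h and 1.25 ± 0.63 (adjusted p = 0.258) at 148 h, so no single time passed. With the probe-name sets centred the fitted value of Ina at 148 h was 0.90 ± 0.60 (limma adjusted p = 0.463). Up to 18 h its ratios lay between 0.846 and 1.59.

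Map1a, the microtubule-associated protein of mature neurons, was higher in lesioned ganglia at 12 and 24 h and above 1 almost throughout. It was above 1 on 22 of 23 arrays, with a lowest ratio of 0.999, a median of 1.46 and a highest ratio of 2.11. Of the 1501 probes measured on all 23 arrays, 8.86% lay on the same side of 1 on at least 22. Of the 4499 probes measured on all 17 full arrays, 3.60% lay on the same side of 1 on all of them, as Map1a did. Its ratios were 1.23, 1.91 and 1.54 at 12 h and 1.78, 1.91 and 2.11 at 24 h. All 3 arrays of 24 h lay above every array of 18 h, where the highest ratio was 1.41. Its fitted log2 ratio was 0.72 ± 0.12 (adjusted p = 0.00235) at 12 h and 0.97 ± 0.15 (adjusted p = 0.00108), a 1.96-fold rise, at 24 h. At the other times it lay between 0.38 and 0.67 and did not pass. The 12 h call was lost in 3 of 6 fits that left out arrays, among them that without replicate 2 at 12 h (0.55, adjusted p = 0.0832). With equal array weights the 12 h value was 0.62 (limma adjusted p = 0.32).

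Map1b, the form of growing axons, lay mostly below 1 by both probes. Probe 31C04 lay below 1 on 19 of 23 arrays and probe 31C10 on 19 of the 22 that measured it. Of the probes measured on all arrays, 32.6% lay on the same side of 1 on at least 19. Probe 31C10 is not among those probes, as it lacked a value on replicate 3 of 148 h. Both Map1b probes belong to a name set with a median of -0.17 in the mean over the times. With the sets centred that mean was -0.15 (limma adjusted p = 0.318) for 31C04 and -0.69 (limma adjusted p = 0.000392) for 31C10. The probes parted at the late times. Probe 31C10 had ratios of 0.363, 0.316 and 0.795 at 48 h, 0.208 and 0.272 at 148 h, and 0.586 and 0.195 at 296 h. Probe 31C04 had 0.687, 0.460 and 0.782 at 48 h, 0.875, 0.895 and 0.949 at 148 h, and 1.07 and 0.794 at 296 h. At 148 h both values of 31C10 lay far below the lowest of 31C04. The fitted log2 ratio of 31C10 was -1.34 ± 0.43 (adjusted p = 0.0951) at 48 h and -2.01 ± 0.64 (adjusted p = 0.061, 2 arrays) at 148 h, and no single time of either probe passed. Over all shared arrays 31C10 was lower by 0.40 on average (SD 0.80, 22 arrays; permutation test, adjusted p = 0.0469), but lower on only 12 of the 22. On the 17 full arrays the difference was -0.15 (permutation test, adjusted p = 0.302), and on the 5 sparse arrays with both probes -1.27 (exact permutation test, adjusted p = 0.15). The probes carry the same gene symbol, and what part of the transcript each reads was not analysed here.

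Uchl1 was lower in lesioned ganglia at 12 and 24 h. Its ratios were 0.899, 1.32 and 1.14 at 4 h, 1.13, 1.02 and 0.911 at 8 h, and 0.608, 0.623 and 0.438 at 12 h. The arrays of 12 h lay below every array of 4 and 8 h. At 18 h the ratios were 0.557, 1.004 and 1.08, and at 24 h 0.455, 0.577 and 0.313. As with Nefh, only replicate 1 at 18 h resembled the arrays of 24 h. Later ratios were 0.517, 0.486 and 1.29 at 48 h, 0.417, 0.615 and 0.854 at 148 h, and 0.489 and 0.454 at 296 h. In the fit the log2 ratio was -0.91 ± 0.17 (adjusted p = 0.00492) at 12 h and -1.23 ± 0.21 (adjusted p = 0.00236), a level 2.34-fold lower, at 24 h. At 296 h it was -1.09 ± 0.51 (adjusted p = 0.444). The 12 h and the 24 h call were each lost in 3 of 6 fits that left out arrays. Without replicate 3 at 12 h the 12 h value was -0.69 (adjusted p = 0.167). Without replicate 3 at 24 h the 24 h value was -0.92 (adjusted p = 0.0738). With equal array weights the 12 h value was -0.86 (limma adjusted p = 0.335).

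Add1, the adducin, was lower at 148 h and below 1 on 19 of 23 arrays. Of the probes measured on all arrays, 32.6% lay on the same side of 1 on at least 19. Its ratios were 0.859, 0.0848 and 0.5996 at 48 h, 0.355, 0.390 and 0.0994 at 148 h, and 0.583 and 1.37 at 296 h. The 3 arrays of 148 h were all low, but the arrays of 48 h and of 148 h spread widely. The lowest value at 48 h came from a sparse array, as did every value at 148 h. The fitted log2 ratio at 148 h was -2.14 ± 0.62 (adjusted p = 0.0387). It was -1.40 (adjusted p = 0.343) without replicate 3 at 148 h, and the call was also lost without either of the other two arrays. With the probe-name sets centred it was -1.70 (adjusted p = 0.124). Up to 24 h its ratios lay between 0.531 and 1.30.

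Counted by time, 3 of the 9 probes passed at 12 h, where 3.61% of all 5020 probes tested did, and 3 of 9 at 24 h, where 6.19% of 5011 did. They were Nefh, Map1a and Uchl1 at both times. At 148 h 2 of 9 passed, against 8.75% of 3187 probes. No member probe passed at 4, 8, 18, 48 or 296 h in limma with array weights, where 1.85%, 1.26%, 2.07%, 3.96% and 0.106% of all probes did. At an unadjusted p under 0.05 there were 3 at 4 h, 3 at 8 h, 2 at 18 h, 3 at 48 h and 3 at 296 h. The share of all probes at an unadjusted p under 0.05 was not computed, here or below, so such counts have no background. With equal array weights limma called 0 of the 9 at 4, 8, 12 and 18 h, but 3 at 24 h (1.42% of all probes), 2 at 48 h (15.6%), 6 at 148 h (28.7%) and 3 at 296 h (8.65%).

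In the mean over the 8 times, members were found on either side of 0. Nefh (log2 0.51 ± 0.10, adjusted p = 0.000739), Map1a (0.57 ± 0.08, adjusted p = 2.79e-05) and Ina (0.59 ± 0.16, adjusted p = 0.00721) were higher. Uchl1 (-0.58 ± 0.11, adjusted p = 0.000512), Add1 (-0.67 ± 0.16, adjusted p = 0.00309), Map1b probe 31C10 (-0.81 ± 0.14, adjusted p = 0.00023) and Nefl probe 52A12 (-0.32 ± 0.06, adjusted p = 0.000284) were lower. Map1b probe 31C04 was at -0.28 ± 0.12 (adjusted p = 0.079) and Nefl probe 27F06 at -0.02 ± 0.08 (adjusted p = 0.829). Thus 7 of 9 probes passed, where 40.0% of the 2327 probes tested did. On the full arrays alone, which hold no array of 148 h and where 6.97% of 4889 probes passed, 3 of 9 did: Nefh (0.54), Map1a (0.53) and Uchl1 (-0.60). Ina then had 0.26 (adjusted p = 0.306), Map1b 31C10 -0.55 (adjusted p = 0.0774), Add1 -0.35 (adjusted p = 0.185) and Nefl 52A12 -0.26 (adjusted p = 0.0823). The probe-name set of Nefl 52A12 had a median mean effect of -0.40, with 62 of its 83 tested probes past the threshold, and after centring of the sets this probe had 0.035 (adjusted p = 0.709). Ina lost its call without replicate 2 at 296 h (0.53, adjusted p = 0.052).

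**Figure D3:**
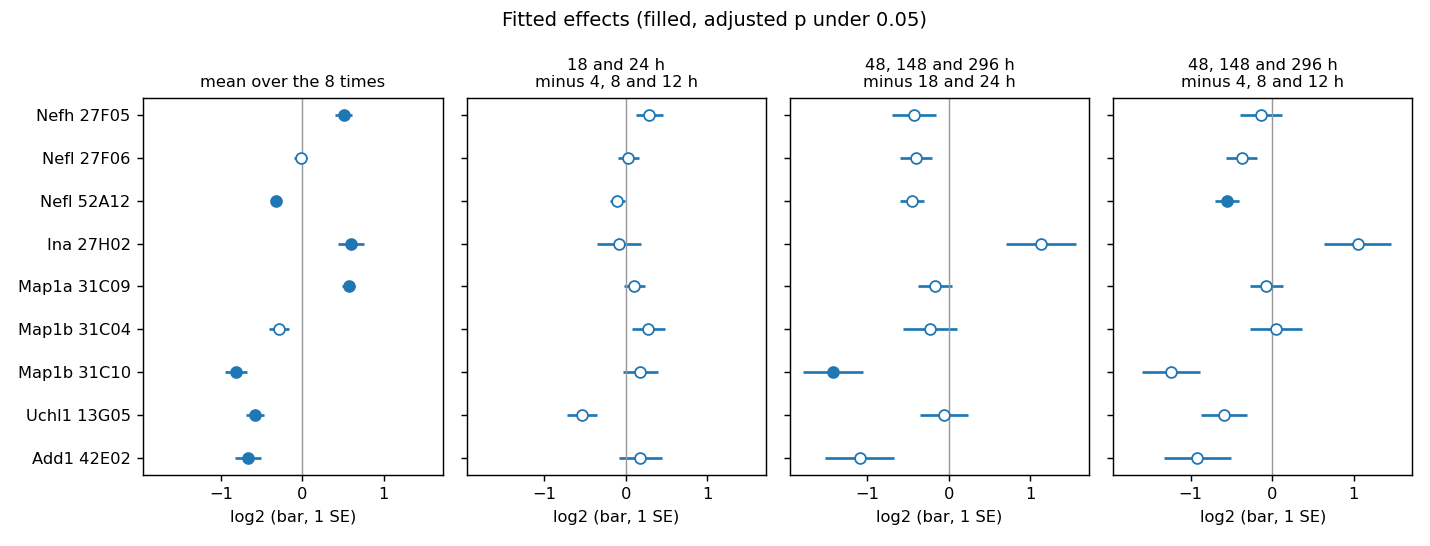
Fitted effects of the 9 probes on the log2 scale (x axis, bar 1 SE): the mean over the 8 times and the 3 differences between early (4, 8 and 12 h), end of the first day (18 and 24 h) and late (48, 148 and 296 h) times. Filled points passed an adjusted p of 0.05, and 2 of the 9 probes passed in a difference between times, Nefl 52A12 and Map1b 31C10.

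Differences between times, in which a constant dye effect cancels, passed for few members. From the early times (4, 8 and 12 h) to the late times (48, 148 and 296 h), Nefl probe 52A12 fell by 0.55 ± 0.14 on the log2 scale (adjusted p = 0.0343). It was the only 1 of the 9, where 4.98% of all probes passed. With the probe-name sets centred its difference was -0.31 ± 0.16 (adjusted p = 0.324), and Map1b 31C10 passed in its place (adjusted p = 0.0419). Map1b 31C10 was next, at -1.24 ± 0.35 (adjusted p = 0.0506), and Ina had 1.05 ± 0.41 (adjusted p = 0.143). From the end of the first day (18 and 24 h) to the late times, Map1b 31C10 fell by 1.42 ± 0.36 (adjusted p = 0.0403), 1 of 9 against 3.18% of all probes. From the early times to the end of the first day, limma called none of the 9 (0.387% of all probes), and Uchl1 was the only member with an unadjusted p under 0.05, at -0.54 ± 0.18 (adjusted p = 0.429). With equal weights no member passed there either. The F-test for any difference between the times called none of the 9 (0.817% of all probes), 3 had an unadjusted p under 0.05, and the smallest adjusted p was 0.109, for Uchl1. With equal weights the F-test called 1. On the full arrays alone, with 2 late arrays left, Nefl 52A12 had -0.49 ± 0.27 and Map1b 31C10 -0.90 ± 0.57, each with an adjusted p of 1. Without replicate 2 at 296 h Nefl 52A12 had -0.62 (adjusted p = 0.13) and Map1b 31C10 -1.16 (adjusted p = 0.31).

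The ratios of Nefh and Map1a rose and fell together from array to array, and that of Uchl1 ran opposite to both. Over the 23 arrays the log2 ratios of Nefh and Map1a had a Pearson r of 0.67 (permutation p = 0.00044, adjusted 0.0158) and a Spearman rho of 0.66 (permutation p = 0.00069, adjusted 0.0124), among 36 pairs of the 9 probes computed after the values had been seen. Without the 2 arrays farthest from the median of Nefh, r was 0.57. On the 17 full arrays r was 0.78 (permutation, adjusted p = 0.00612), and between deviations from the mean of each time it was 0.67 (permutation within times, adjusted p = 0.0446). Nefh and Map1a thus followed each other among arrays of the same time as well as across times. Nefh and Uchl1 ran in opposite directions, with r = -0.57 (permutation p = 0.00536, adjusted 0.03) and rho = -0.51 (permutation p = 0.0128, adjusted 0.0659). Without the 2 farthest arrays r was -0.51, on the full arrays -0.63 (permutation, adjusted p = 0.117) and within times -0.73 (permutation within times, adjusted p = 0.0446). Map1a and Uchl1 had r = -0.53 (permutation p = 0.00918, adjusted 0.0413) and rho = -0.49 (permutation p = 0.0196, adjusted 0.088), r = -0.36 without the 2 arrays farthest from the median of Map1a, -0.44 on the full arrays (permutation, adjusted p = 0.365) and -0.58 within times (permutation within times, adjusted p = 0.0446). With each array's log2 ratios divided by their SD, which removes a difference in overall spread, the 3 values were 0.81, -0.64 and -0.50. Of the 36 pairs 8 passed by r and 6 by rho. On the full arrays 1 passed by r, that of Nefh with Map1a. Within times 5 passed, the 3 above, Nefl 52A12 with Uchl1 (0.67) and the Map1b probes with each other (0.47). The largest rho was that of Nefl 52A12 with Ina (-0.74, permutation p = 0.00013, adjusted 0.00468), with r = -0.49 (permutation p = 0.0224, adjusted 0.0733). Ina and Add1 had the largest r (-0.72, permutation p = 0.00238, adjusted 0.0282), but a rho of -0.18 (permutation p = 0.413, adjusted 0.62) and an r of -0.03 without the 2 arrays farthest from the median of Ina. Arrays of a time share that time and each is 1 hybridisation, so the points of a time are not independent of its lesion effect. The share of pairs that would pass among all probes was not computed, so the counts of pairs have no background. Nefh also had an r of 0.90 over the arrays with Ywhag, a gene outside the group that was picked for its like time means.

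**Figure D4:**
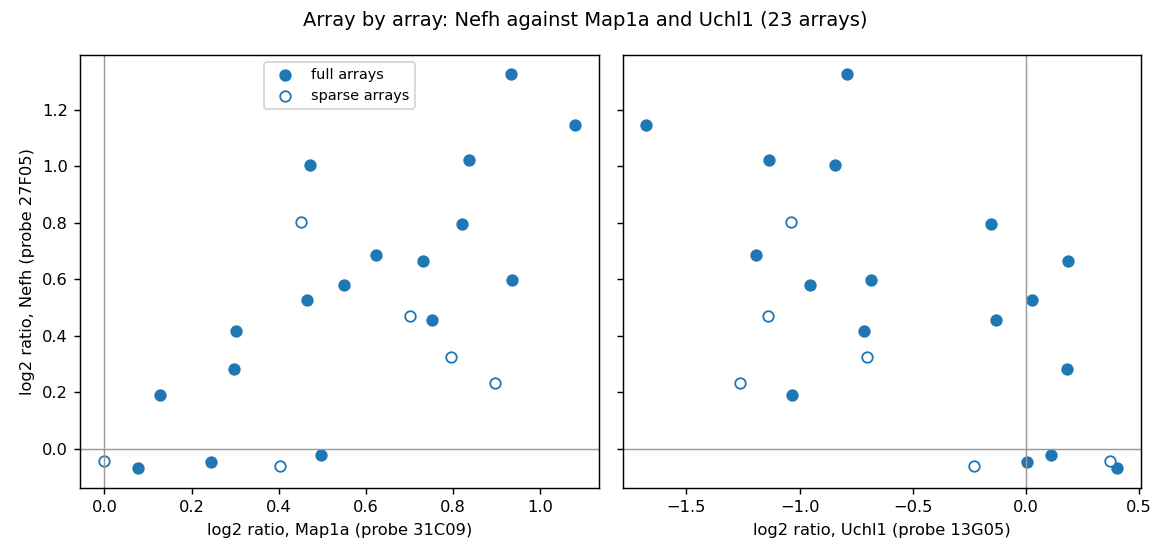
Log2 ratio of Nefh (y axis) against that of Map1a (left) and Uchl1 (right) on each of the 23 arrays, with full arrays filled and sparse arrays open. Points rise from left to right for Map1a (r = 0.67) and fall for Uchl1 (r = -0.57).

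Other genes of the axonal cytoskeleton were counted by lists written with earlier results known, and changed in both directions. Of 10 tested probes for other intermediate filaments, 1 was higher and 0 lower at 24 h, with a median log2 ratio of 0.08 against 0.03 over all probes. In the mean over the times 2 of 6 were higher, namely Vim (0.52 ± 0.07) and Gfap (0.38 ± 0.14), the filament proteins of non-neuronal cells and of glia, and none was lower. None of the 5 tubulin probes passed at 148 h in limma (1 at an unadjusted p under 0.05, 2 called with equal weights), where their median was 0.52 against 0.01 over all probes. In the mean 3 of 5 passed: Tubb2b (0.26) and Tuba1b (0.15) were higher and Tuba1a probe 52G06 (-0.18) was lower. The name set of this Tuba1a probe, that of Nefl 52A12, had a median of -0.40 in the mean. Of 15 probes for other microtubule-associated proteins and regulators, 5 were higher and 4 lower in the mean. The highest was Stmn4, a stathmin that binds free tubulin, at 0.94 ± 0.09, and it alone passed from the early to the late times, where it rose by 2.25 ± 0.22. The lowest were Dpysl3 (-0.68) and Dpysl2 (-0.63), collapsin response mediators that bind tubulin. Of 12 probes for motors and their partners, 5 were higher and 1 lower in the mean, with the dynein chain Dync1li2 (0.60) and the kinesin Kif2a (0.57) highest and Dync1i2 (-0.52) lower. Of 11 probes for the spectrin, ankyrin and actin skeleton, 2 were higher, the actin-binding Tpm3 (0.95) and Pfn1 (0.75), and 1 lower, Add3 (-0.28), a further adducin. Add3 shares its probe-name set with Add1, and that set had a median of -0.30 in the mean. Of 11 probes for kinases and phosphatases of cytoskeletal proteins, 2 were higher, the phosphatase subunits Ppp2cb (0.47) and Ppp3ca (0.21), and 1 lower, Ppp1ca (-0.36). Both tested calpain probes, Capns1 (0.49) and Capn1 (0.36), subunits of the protease that cleaves neurofilaments, were higher in the mean. Further named probes shared a name set, among them Tpm3 with Pfn1, Capns1 with Capn1 and Dpysl3 with Dpysl2. Over the 53 sets the median in the mean ran from -0.50 to 0.27, and the part of the sets in these effects was not tested. Over all 2327 probes 18.5% were higher and 21.5% lower in the mean, so that the shares of these lists are to be read against that background.

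In limma with array weights, markers of the cell types in a ganglion passed at 12 and 24 h as well as at the late times. At 12 h, where 3.61% of all probes passed, 2 of 12 Schwann cell probes were higher, namely the myelin genes Prx (0.77) and Pmp22 (0.68), with a list median of 0.35. At the same time 1 of 17 neuron probes was lower (Ret, -0.83), 1 of 7 macrophage probes higher (Cd53, 1.78), 1 of 7 fibroblast probes higher (Dcn, 0.54) and 1 of 5 endothelial probes lower (Vwf, -2.55). At an unadjusted p under 0.05 there were 8 of the 12 Schwann cell and 7 of the 17 neuron probes. Without the share of all probes at that threshold, these counts have no background. With equal weights no probe of these lists passed at 12 h. The part of these cells in the 12 and 24 h ratios of Nefh, Map1a and Uchl1 was not tested. At 24 h limma called none of the 17 neuron marker probes tested (6 at an unadjusted p under 0.05), with a median log2 ratio of 0.08, and none of 7 macrophage probes (1 at an unadjusted p under 0.05). Equal weights called none in either list, nor in the Schwann cell and satellite glia lists at 24 h. At 148 h, where 8.75% of all probes passed, 3 of 15 neuron marker probes were lower and none higher, 2 of them for Calca and 1 for Tac1, with a list median of -0.27, while 2 of 3 macrophage probes were higher and their median was 2.03. Calca probe 52C03 (-0.89) shares the name set of Nefl 52A12, whose median was -0.62 at 148 h. The other Calca probe, 35C05, had -1.60. From the early to the late times, where 4.98% of all probes passed, 3 of 14 neuron probes fell and both tested macrophage probes rose. Of Schwann cell probes 2 of 12 were higher (Prx, 0.76, and Pmp22, 0.50) and 1 lower (S100b, -0.77) at 24 h, and 1 of 10 was higher at 148 h. The name set of the S100b probe, that of Nefl 52A12, had a median of -0.33 at 24 h. Of satellite glia probes 1 of 6 was lower at 24 h (Glul, -0.77) and none of 3 passed at 148 h in limma (0 at an unadjusted p under 0.05, 0 with equal weights). At 148 h none of the 7 fibroblast, 3 endothelial, 3 skeletal muscle and 1 T cell probes passed, while 2, 0, 2 and 0 had an unadjusted p under 0.05 and equal weights called 2, 1, 2 and 0. The deposited values are ratios, so no level of any marker can be given. The part of these cells in the late ratios of Nefl, Ina, Map1b and Add1 was not tested.

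By the correlation of the 8 time means over up to 2095 probes of other genes, the patterns most like that of Nefh were those of Or1f19e, an olfactory receptor (r = 0.98), and Ywhag, a 14-3-3 protein (r = 0.95). Over the 23 arrays their r with Nefh was 0.32 and 0.90. The nearest to Map1a was Adam15 (0.87, and 0.28 over the arrays), and the nearest to Uchl1 was Rpl32, a ribosomal protein (0.96, and 0.74 over the arrays). Nefl 52A12 was nearest to Mt3, a metallothionein (0.97, and 0.86 over the arrays), and Nefl 27F06 to Notch1 (0.98, and 0.57 over the arrays). Ina was nearest to Txn1, thioredoxin (0.97, and 0.13 over the arrays), and Map1b 31C10 to Pdia3, a protein disulphide isomerase (0.98, and 0.92 over the arrays). Map1b 31C04 was nearest to Slc16a1 (0.98, and 0.38 over the arrays) and Add1 to S100a1 (0.98, and 0.73 over the arrays). The correlations over 8 means are descriptions of the closest among the probes compared and carry no test.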

How the data were processed

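Per the labels, RNA was labelled with dendrimers and hybridised to spotted oligonucleotide arrays. The authors deposited linear ratios, 1 per probe and array, with array medians of 1.002 to 1.061. The scanner software, the background correction and any normalization are not given in the sources used here. The ratio's direction was taken from the dyes. Signal over background is unknown without intensities, and the number of arrays sets the precision. Gene names came from the platform annotation (4423 probes with 1 symbol, 2 with several, 663 with none). Ratios were converted to log2 with no pseudocount. No 2 arrays held identical values.

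A mean per time was fitted to all 23 arrays in limma 3.58.1 (R 4.3.3) with array weights and a moderated variance, two-sided, with Benjamini-Hochberg adjustment over all probes tested and a threshold of 0.05. A time needed 2 arrays with a value, and the mean, the F-test and the differences needed 2 at each time. The standard error rests on the moderated variance and the weights, so it may be below the SD of a time's arrays. Sparse arrays are those with 200 or more missing probes, a limit set after counting them, and their spread was 1.92 times that of full arrays by the weights. Probe differences used sign permutations and correlations used permuted arrays (100000, or exact under 10 arrays; Python 3.11.15, scipy 1.17.1). The fit and these tests were tested on simulated data. Replicate numbers did not pair the arrays: residuals of same-numbered arrays had correlations of -0.14 to 0.12, with 4 of 77 pairs over 0.1.

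All probes of the 7 genes were named. Of each related list, up to 2 probes at either end that passed in the mean or from early to late times were named, and for likeness up to 2 probes per member. Members, lists and tests were chosen with earlier results of these data known. Alternatives were equal weights, median centring, scaling, full arrays only, the replicate number or array class as a block, robust variance, arrays of 1 time alone, complete times only, 48 h alone as the late time, leaving out arrays, and centring within probe-name sets.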

Additional observations from a re-analysis of the deposited data

Results flagged for a closer look

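The fall of Map1b probe 31C10 from 18 and 24 h to 48, 148 and 296 h stood out because the difference between times itself passed its test (log2 -1.42 ± 0.36, limma adjusted p = 0.0403), while the other Map1b probe, 31C04, had -0.23 ± 0.33 (adjusted p = 0.778). The fall of Nefl probe 52A12 from 4, 8 and 12 h to 48, 148 and 296 h stood out for the same reason (-0.55 ± 0.14, adjusted p = 0.0343), and Nefl probe 27F06 had -0.37 ± 0.19 (adjusted p = 0.277). With the probe-name sets centred the difference of Nefl 52A12 was -0.31 (adjusted p = 0.324) and that of Map1b 31C10 -1.28 (adjusted p = 0.0424). The call of Map1b 31C10 was lost in 9 of 13 fits that left out arrays, and that of Nefl 52A12 in 14 of 20.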

How the results depend on the processing

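Nefh, Map1a and Uchl1 kept their calls in the mean under all 7 alternatives and all 26 fits that left out arrays (0.46 to 0.55, 0.53 to 0.60 and -0.65 to -0.51 in those fits). Their calls at 24 h were lost when the arrays of that time were fitted alone, where only 3 of all 5011 probes passed. These calls were also lost in 2, 1 and 3 of the 6 fits that left out arrays. Member probes past the threshold numbered, with equal array weights, 0 at 12 h, 2 at 48 h, 6 at 148 h, 3 at 296 h, 2 in both differences to the late times and 1 in the F-test. They numbered 2 from early to late times with median centring, where 4.98% of all probes passed. In both differences to the late times they numbered 0 with scaling, on the full arrays alone and with the array class as a block. They numbered 3 in the mean on the full arrays (6.97% of all probes) and 0 from early times to 48 h alone (1.38%). With the arrays of a time alone they numbered 0 at 12, 24 and 148 h, where only 1, 3 and 0 of all probes passed. Centring within probe-name sets, chosen after seeing the data, left 1 at 148 h (5.62% of all probes) and turned the mean of Nefl 52A12 to 0.035. The replicate block left 1 at 148 h (Add1 lost, 7.73% of all probes) and 0 from the end of the first day to late times (2.97%). It moved no other member count by over 1.5 times, and 7 of 23 arrays correlated best with their own number.

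Without single replicates or arrays the counts ran from 0 to 1 at 4 h, 0 to 3 at 12 h, 0 to 3 at 24 h, 0 to 2 at 48 h, 0 to 1 at 148 h, 6 to 8 in the mean, 0 to 1 from the end of the first day to late times, 0 to 2 from early to late times and 0 to 1 in the F-test, with 0 throughout in the other comparisons. The share of all probes that passed in each of these fits is not given here. Array weights were kept from the fit of all arrays, and a lone array was assumed to vary like the others. Of all probes, equal weights called 27 at 4 h, 21 at 8 h, 7 at 12 h, 19 at 18 h, 71 at 24 h, 698 at 48 h, 916 at 148 h and 245 at 296 h, where array weights called 93, 63, 181, 104, 310, 177, 279 and 3. They called 6, 127 and 263 in the differences (day 1 minus early, late minus day 1, late minus early) against 9, 74 and 116, and 98 against 19 in the F-test. On the full arrays 341 of all probes passed in the mean, and 1 and 3 in the 2 late differences. Scaling left 15 and 48 in those, the array class block 4 and 4, and scaling gave 22 at 296 h.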
